A study of Homo sapiens with 6 samples.

Results

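MOLM-13 is an established human cell line from an acute monocytic leukaemia, AML-M5 in the labels. The study fitted these cells with a doxycycline-inducible knockout vector for CaMK2D, the delta isoform of calcium/calmodulin-dependent protein kinase II, and sequenced poly-A RNA. The comparison described here is between the 2 knockout-labelled libraries taken after 5 days of induction and the 2 taken after 3 days, which are 4 of the 6 libraries of the series and were chosen by their labels alone. It asks which transcripts went on changing between the days and which turned back. The starting level comes from the other 2 libraries, labelled control with no dox induction. The day 3 and day 5 groups share cell line, vector and doxycycline, so the genotype label does not differ between them, and longer induction and longer culture cannot be told apart. The control had no doxycycline, so against it the drug and the knockout cannot be told apart. The labels give no guide sequence and no number of clones, and do not state if the replicates were grown separately. Each group holds a replicate 1 and a replicate 2, so every p-value measures the spread between these libraries only, which may be technical.

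The 4 knockout-labelled libraries held 17410879 to 19473291 gene counts and the control libraries 15456770 and 21081298. Levels below are CPM, the reads of a gene as a share of all counted reads scaled to a common library size by TMM, and a change is the log2 fold change of day 5 over day 3 with its standard error (SE). Of 12 myeloid marker genes, 11 stood at 1 CPM or more in all 4 knockout-labelled libraries, with summed levels of 1484 and 1855 CPM at day 3 and 1491 and 1869 CPM at day 5. The summed markers were 4195 and 5198 CPM in the control libraries. Sums for erythroid, megakaryocyte, lymphoid and epithelial or stromal markers ran from 8.65 to 61.9 CPM in the knockout-labelled libraries. Mitochondrially encoded genes took 0.868% and 0.929% of counts at day 3 and 1.08% and 1.14% at day 5.

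CAMK2D, the gene the vector targets, stood at 23.0 and 14.5 CPM in the control libraries, 14.7 and 15.6 CPM at day 3 and 29.0 and 28.1 CPM at day 5. Both day 5 libraries lay above both day 3 libraries, at a log2 change of 0.91 ± 0.23 SE that did not pass an adjusted p of 0.05 (edgeR adjusted p = 0.196). It passed when the replicate number was used as a block (edgeR adjusted p = 0.00946), a fit described below. The labels do not say whether the vector is meant to lower this mRNA, so its level does not check them, and the libraries are called knockout-labelled throughout. CAMK2G, another isoform of the kinase, stood at 75.5 and 61.5 CPM at day 3 and 72.0 and 65.9 CPM at day 5. CAMK2B was at or under 0.99 CPM in these 4 libraries, and CAMK2A did not pass the filter on low counts.

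Haem oxygenase breaks haem down to biliverdin, carbon monoxide and free iron, and ferritin, built of heavy and light chains, stores the iron that is released. The transcription factor NRF2, held down by KEAP1, switches on these genes together with the enzymes that make glutathione and reduce quinones and thioredoxin. BACH1 is a haem-binding repressor that occupies many of the same sites. Cells of the monocyte and macrophage line are known for this pathway because they recycle haem iron.

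Between day 3 and day 5, 4 of 14601 tested genes (0.0274%) passed an adjusted p of 0.05 in edgeR's quasi-likelihood test, and all 4 were higher at day 5. The share called lower was 0%. They were HMOX1, FTH1, GCLM and TNFRSF10D. No gene was called lower, against 957 lower and 1249 higher genes with an unadjusted edgeR p under 0.05. DESeq2 without the block called 202 genes higher and 183 lower. As in any bulk RNA, fewer cells with a transcript and less of it per cell cannot be told apart.

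HMOX1, which encodes the inducible haem oxygenase, stood at 0.642 and 1.25 CPM in the control libraries, 5.73 and 4.78 CPM at day 3 and 74.8 and 98.9 CPM at day 5. The 3 groups did not overlap and each day was higher than the one before. The rise was 16.5-fold over 2 further days, a log2 change of 4.04 ± 0.26 SE (edgeR adjusted p = 0.00443). The gene lies on chromosome 22, 35380361 to 35394214 (GRCh38, plus strand). FTH1, the ferritin heavy chain with ferroxidase activity, stood at 69.6 and 57.8 CPM in the control libraries, 175 and 167 CPM at day 3 and 563 and 702 CPM at day 5. Its groups did not overlap either, and the rise was 3.70-fold (log2 1.89 ± 0.15 SE, edgeR adjusted p = 0.0116). FTH1 lies on chromosome 11, 61959718 to 61967660, minus strand. Its exons overlap those of BEST1, which went the other way, from 8.03 and 7.31 CPM to 4.30 and 4.37 CPM. Ferritin genes also have processed pseudogene copies, and how reads shared between copies were counted is not given in the sources used here.

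GCLM, the modifier subunit of the enzyme that makes the first step of glutathione synthesis, stood at 36.6 and 35.2 CPM in the control libraries, 48.7 and 51.9 CPM at day 3 and 116 and 122 CPM at day 5. The libraries of the 3 groups were again in separate ranges, and the rise was 2.36-fold (log2 1.24 ± 0.12 SE, edgeR adjusted p = 0.0303). GCLM lies on chromosome 1, 93885205 to 93909456, minus strand. TNFRSF10D, a decoy receptor for the death ligand TRAIL, followed another course. It stood at 97.9 and 88.5 CPM in the control libraries and 91.7 and 81.9 CPM at day 3, where the ranges overlap, and at 200.5 and 226 CPM at day 5. The rise was 2.45-fold (log2 1.30 ± 0.13 SE, edgeR adjusted p = 0.0303), and the gene lies on chromosome 8, 23135588 to 23164030, minus strand. When any one knockout-labelled library was left out, HMOX1 still passed, while GCLM (edgeR adjusted p from 0.185 to 0.425) and TNFRSF10D (0.11 to 0.499) did not. FTH1 passed without day 5 replicate 1 only, and its edgeR adjusted p was 0.157, 0.19 and 0.0566 without the other three. The count of calls was 1 without either day 3 library or day 5 replicate 2, 3 without day 5 replicate 1, and 14 and 15 without either control library. GCLM also missed the threshold once GC and length trends were removed (edgeR adjusted p = 0.105).

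**Figure D1:**
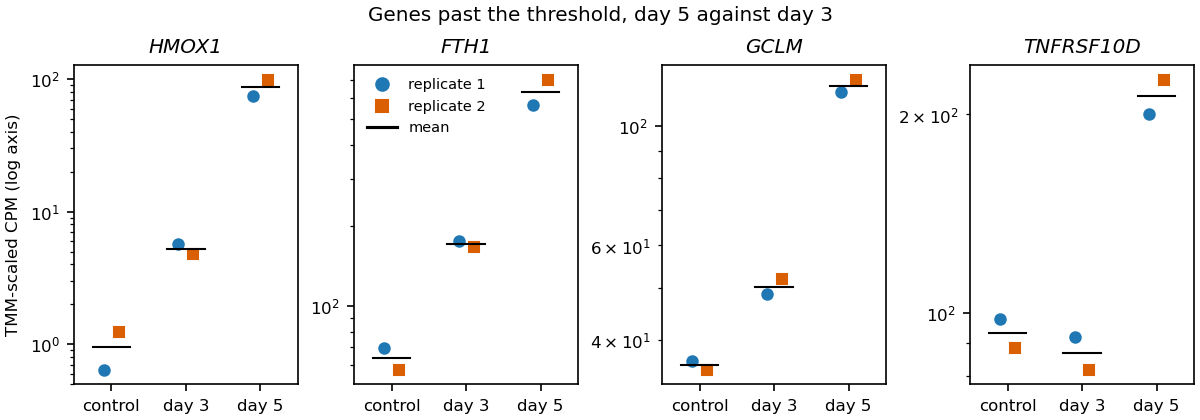
Levels of the 4 genes past the threshold in each of the 6 libraries, in TMM-scaled CPM on log axes that differ between panels; points are libraries, bars group means. HMOX1, FTH1 and GCLM climb from control to day 3 to day 5, while TNFRSF10D overlaps its control at day 3 and stands apart at day 5 only.

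The replicate numbers were used as a block in an alternative fit that compares replicate 1 with replicate 1 and replicate 2 with replicate 2. Replicates 1 and 2 differed from their group means in a shared way across the 3 groups, and with the replicate block 1117 genes (7.65%) passed the threshold, 648 higher (4.44%) and 469 lower (3.21%). The 4 genes above were among them. Statements below that a gene rose or fell refer to this blocked fit unless they concern those 4, and the values beside them are from it. Which genes of a list are named from the blocked fit was decided after their values were seen. GC content moved with these calls: the median transcript GC was 40.4% in the 648 higher genes, 53.2% in the 469 lower genes and 48.7% in all tested genes. The median exon length was 6611.5 bases in the higher genes against 4503 in all tested genes. After per-library trends on GC content and length were removed, 805 genes passed with the block, 318 higher and 487 lower, and 592 of the 1117 were among them. Of the 85 named genes that passed with the block, 30 passed in every other blocked fit tried. These were HMOX1, FTH1, GCLM, TNFRSF10D, NQO1, SLC48A1, SLC7A11, MYC, RRP12, RRP9, POLR1B, UNG, TOP2A, CDK1, NEK2, CENPF, DLGAP5, RRM2B, ZMAT3, CXCL8, MPO, LILRB4, CCR2, F3, OASL, GDF15, CHAC1, TXNIP, ID2 and BASP1. The other 55 missed the threshold in at least 1, which was most often the fit without day 3 replicate 1 (41 genes), day 3 replicate 2 (44) or day 5 replicate 2 (34), against 10 without day 5 replicate 1 and none without a control library. With GC and length trends removed, 10 missed it: FAS, MDM2, SREBF1, CDK4, ODC1, DDIT3, DNAJB9, CAMKK2, LEPR and CHRNA7. With DESeq2 and the block, 7 did: FAS, CDC20, EGR1, DNAJB9, DDIT3, TERT and PIM3. PIM3 and TXNRD1 missed it without the filter on low counts, and CDC20 with upper-quartile factors.

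**Figure D2:**
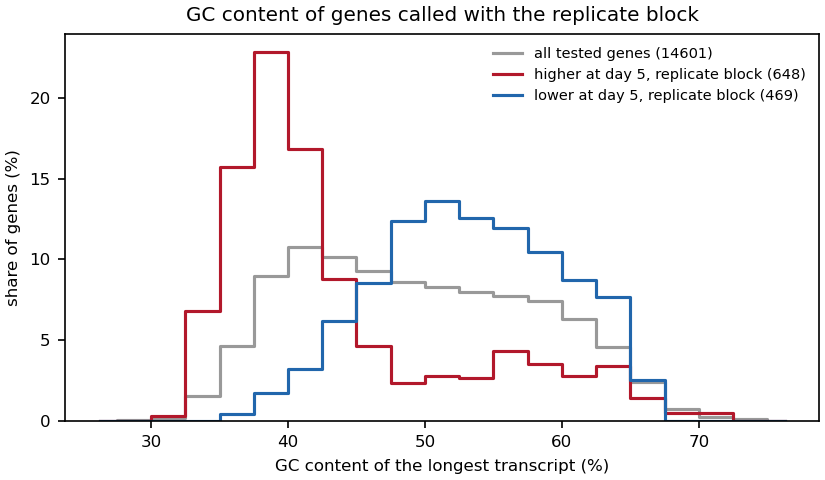
Distribution of transcript GC content (x axis, %) as a share of genes (y axis, %) for all 14601 tested genes and for the 648 higher and 469 lower genes of the blocked fit. Higher genes pile up near 40% GC, with a median of 40.4%, and lower genes above 45%, with a median of 53.2%.

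The haem, iron and NRF2 list held 36 tested genes. Of these, 3 passed without the block (HMOX1, FTH1 and GCLM), and 11 rose and none fell with it, beside 4.44% and 3.21% of all tested genes. Both day 5 libraries lay above both day 3 libraries for 20 of the 36 genes (25.5% of all tested genes) and below them for 4 (23.8%), 49.2% of all tested genes having days that do not overlap. The median log2 change was 0.33, against 0.02 over all tested genes. With the GC and length trends removed, 12 rose with the block. The blocked count was 6 without day 3 replicate 1, 8 without day 3 replicate 2, and 16 without either control library.

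A haem transporter and the second ferritin chain also rose. SLC48A1, a haem transporter of the lysosomal membrane, stood at 13.5 and 13.8 CPM in the control libraries, 33.1 and 36.6 CPM at day 3 and 73.7 and 74.0 CPM at day 5 (log2 1.09 ± 0.14 SE, blocked edgeR adjusted p = 0.000243). Its exons overlap HDAC7 and RAPGEF3. FTL, the ferritin light chain, rose from 1981 and 1861 CPM to 2969 and 2754 CPM (log2 0.57 ± 0.13 SE, blocked edgeR adjusted p = 0.0126), having stood at 1430.3 and 1059 CPM in the control libraries. The change of the light chain was the smaller of the 2, and the difference between the chains was not tested. TFRC, the transferrin receptor that brings iron in, stood at 429 and 392 CPM in the control libraries, 182 and 213 CPM at day 3 and 369 and 234 CPM at day 5, with replicate 1 alone far above its day 3 level, and did not pass (blocked edgeR adjusted p = 0.0775). The haem synthesis genes UROD and FECH did not pass either, with log2 changes of -0.23 and -0.31 in the blocked fit.

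Among the enzymes under NRF2, NQO1, a quinone reductase, stood at 13.4 and 9.59 CPM in the control libraries, 51.0 and 38.4 CPM at day 3 and 125 and 91.9 CPM at day 5. The groups were in separate ranges, and NQO1 rose by nearly the same amount in each replicate, 1.29 and 1.25 on the log2 scale (blocked edgeR adjusted p = 1.72e-05), but did not pass without the block (edgeR adjusted p = 0.162). TXNRD1, thioredoxin reductase, rose from 409 and 393 CPM to 557 and 509 CPM, and ME1, the cytosolic malic enzyme that makes NADPH, from 23.0 and 17.8 CPM to 57.7 and 30.2 CPM. SQSTM1, the autophagy receptor p62 that also binds KEAP1, rose from 212 and 195 CPM to 268 and 298 CPM. Their blocked log2 changes were 0.41 ± 0.11, 1.04 ± 0.21 and 0.48 ± 0.13 SE. ME1 was higher in replicate 1 in every group, most so in the control libraries at 25.6 and 9.16 CPM, and passed only with the block. GCLC, the catalytic partner of GCLM, was at 40.0 and 33.5 CPM at day 3 and 46.7 and 47.9 CPM at day 5 and did not pass (blocked edgeR adjusted p = 0.141). The catalytic subunit had 25.2 and 21.1 CPM in the control libraries, below both days.

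SLC7A11 and BACH1 took a different path from the rest of the list. SLC7A11, the cystine importer that feeds glutathione synthesis, stood at 94.2 and 92.2 CPM in the control libraries, 65.3 and 67.6 CPM at day 3 and 127 and 119.6 CPM at day 5, above both controls. BACH1 stood at 38.4 and 31.9 CPM in the control libraries, 23.7 and 21.8 CPM at day 3 and 41.3 and 37.5 CPM at day 5. Both rose between the days with the block (log2 0.89 ± 0.12 and 0.79 ± 0.15 SE). NFE2L2, which encodes NRF2, was at 46.3 and 44.1 CPM and then 55.6 and 58.0 CPM, and KEAP1 at 192 and 189.8 CPM and then 165 and 162 CPM. Neither passed (blocked edgeR adjusted p = 0.179 and 0.262). PRDX1, a peroxiredoxin, also missed it, at a log2 change of -0.20. PIR, an iron-binding nuclear protein outside the list, rose from 8.55 and 5.94 CPM to 19.0 and 19.6 CPM, from 2.83 and 3.55 CPM in the control libraries.

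**Figure D3:**
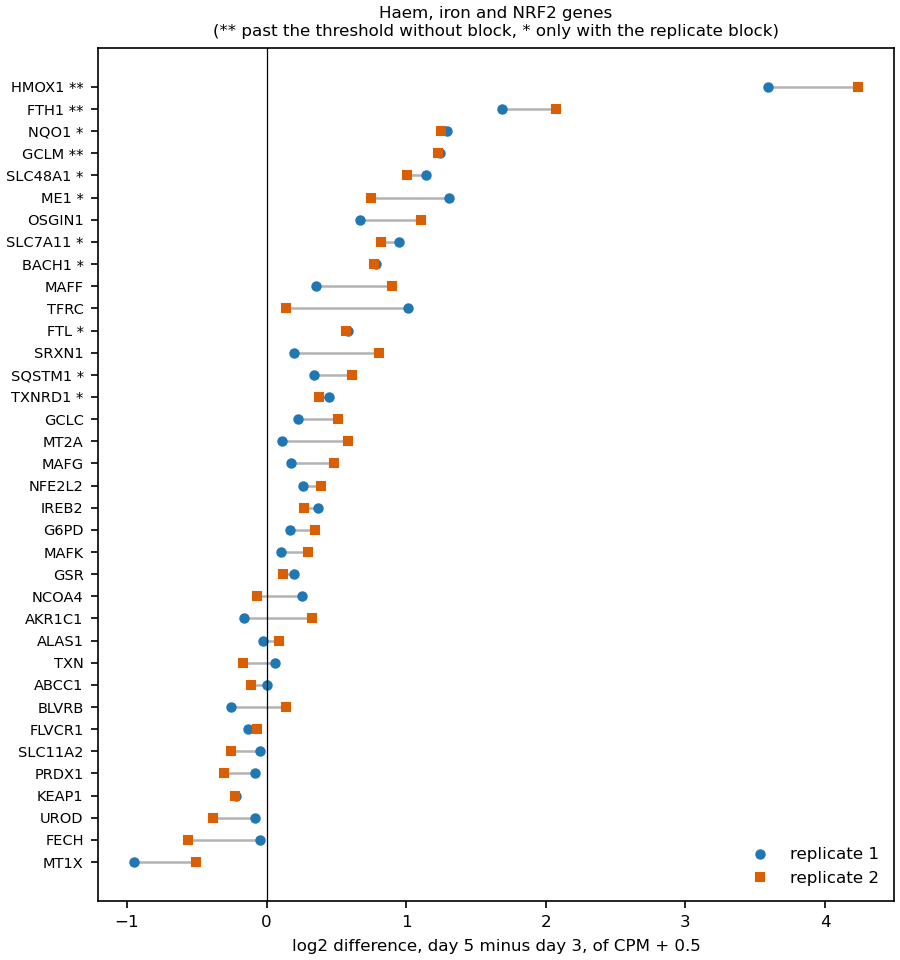
Difference between day 5 and day 3 on the log2(CPM + 0.5) scale (x axis) for the 36 tested haem, iron and NRF2 genes (y axis), with replicate 1 as circles and replicate 2 as squares. HMOX1, FTH1, NQO1, GCLM and SLC48A1 are at or above 1 in both replicates, and MT1X and FECH lie at the low end.

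The antioxidant response element is the site that NRF2 and small MAF proteins bind and that BACH1 competes for. Its core, TGACNNNGC, was searched on both strands of the 250 bases before the start of each RefSeq gene (GRCh38.p14). A promoter was matched for 28 of the 36 genes and 9982 of all tested genes, and the core was found in 7 of the 28 (25.0%) and in 12.3% of the 9982. Of 8 promoters of genes that rose with the block, those of GCLM, TXNRD1 and ME1 hold it. They are shown because they are the places where the promoter letters can be read beside the change. The 150 bases that end at the base before the start are printed 5′ to 3′ on the gene's strand, with the core in capitals: GCLM at chr1:93909431-93909580 (minus strand), TXNRD1 at chr12:104215629-104215778 (plus strand) and ME1 at chr6:83431052-83431201 (minus strand).

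GCLM: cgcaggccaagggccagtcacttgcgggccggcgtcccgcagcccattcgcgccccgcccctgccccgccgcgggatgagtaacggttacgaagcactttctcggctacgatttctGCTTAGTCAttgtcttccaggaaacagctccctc
TXNRD1: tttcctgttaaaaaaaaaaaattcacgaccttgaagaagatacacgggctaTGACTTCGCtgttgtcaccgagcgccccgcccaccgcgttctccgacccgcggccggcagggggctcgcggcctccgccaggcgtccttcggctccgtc
ME1: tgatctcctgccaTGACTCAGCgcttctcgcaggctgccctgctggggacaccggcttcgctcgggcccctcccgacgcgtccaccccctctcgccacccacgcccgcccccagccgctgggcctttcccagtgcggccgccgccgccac

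The first base of the match lies at -34 in GCLM, -99 in TXNRD1 and -137 in ME1, counted from the start, and the GCLM match is on the opposite strand. FECH and MAFF, which did not pass, also hold the core, so the match alone does not separate the genes that rose. A match is a description of the letters and not evidence of binding.

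The order of the libraries shows how each change relates to the control. A gene was counted as farther from control when both day 3 libraries lay on one side of both controls and both day 5 libraries lay beyond them, as nearer when day 5 lay on the control side of day 3, and as late when the day 3 libraries were not both on one side of both controls and the day 5 libraries were. Of the 4 genes called without the block, 3 were farther, 1 was late and none was nearer. Of the 1117 genes called with the block, 203 (18.2%) were farther, 517 (46.3%) nearer and 302 (27.0%) late, against 10.8%, 22.4% and 10.7% of all tested genes. These classes need days that do not overlap, which the call itself favours. The days overlapped in 4.74% of the called genes and in 50.8% of all tested genes, so larger shares among called genes are no result. Of the 7190 tested genes whose days did not overlap, 1583 were farther, 3268 nearer and 1567 late. Of the 517, 88 were still outside the control range at day 5, 238 lay within it and 191 had passed it. The genes that fell included 262 nearer, 76 farther and 90 late, and those that rose 255 nearer, 127 farther and 212 late. The day 3 libraries enter both sides of this ordering, so the counts describe the libraries and are given without a test.

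**Figure D4:**
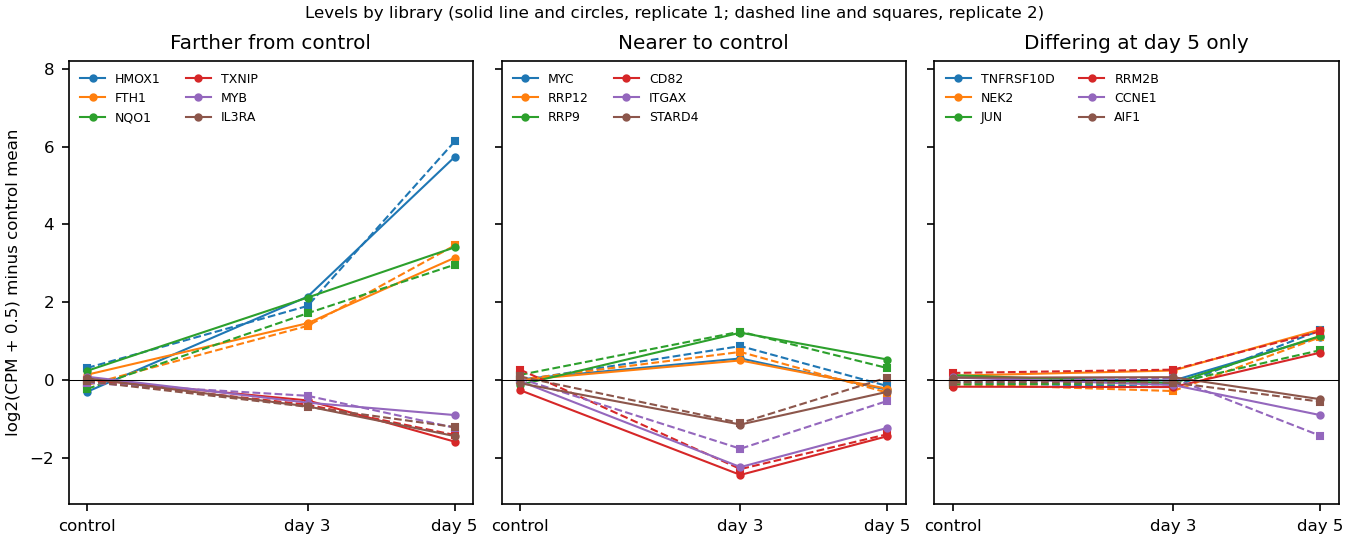
Course of 18 genes by library as log2(CPM + 0.5) minus the control mean (y axis) at control, day 3 and day 5 (x axis); solid lines and circles are replicate 1, dashed lines and squares replicate 2. HMOX1 ends about 6 units above control, MYC and RRP12 are above control at day 3 and below it at day 5, and TNFRSF10D, NEK2 and JUN leave the control level at day 5 only.

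The median of the genes of ribosome production was above control at day 3 and near it at day 5. MYC is the transcription factor that drives ribosome biogenesis, and the list combines it with its targets, RNA polymerase I subunits and nucleolar processing factors. Of 30 tested genes, 17 fell and none rose with the replicate block, beside 3.21% and 4.44% of all tested genes. Without the block edgeR called none of them, with 19 lower at an unadjusted p under 0.05, and DESeq2 called 11 lower. Both day 5 libraries lay below both day 3 libraries for 27 of the 30, against 23.8% of all tested genes. The median log2 change was -0.49. The median stood 0.47 above control at day 3 and 0.03 above it at day 5, and 25 of the 30 were nearer to control by library order. Removing the GC and length trends left 16 falls. The blocked count was 9 without day 3 replicate 1, 5 without day 3 replicate 2, 5 without day 5 replicate 2, and 23 and 24 without either control library.

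MYC stood at 614 and 603 CPM in the control libraries, 891 and 1112 CPM at day 3 and 509.9 and 545 CPM at day 5. Day 5 was below both the day 3 and the control libraries, a fall of log2 -0.92 ± 0.12 SE with the block (edgeR adjusted p = 0.00033). RRP12, a factor for export of ribosomal subunits, went from 222 and 224 CPM in control through 316 and 368 CPM to 190.3 and 177 CPM. POLR1B and POLR1A, the core catalytic subunits of RNA polymerase I, fell from 134 and 135 CPM to 79.2 and 78.7 CPM and from 201 and 207 CPM to 146 and 122 CPM. These 3 ended at or below the control level. RRP9, a component of the small nucleolar ribonucleoprotein U3, stayed above control, going from 53.5 and 63.9 CPM through 136 and 139 CPM to 84.2 and 72.2 CPM. ODC1, the first enzyme of polyamine synthesis, also remained above its control level of 123 and 98.5 CPM, at 302 and 278 CPM and then 258 and 185 CPM. Of 40 cytosolic ribosomal protein genes, edgeR on all 6 libraries called none with or without the block, with 15 and 12 lower at an unadjusted p under 0.05. Blocked edgeR fits without either control library did call members lower. DESeq2 called 6 lower with the block and 1 without it. Both day 5 libraries lay below both day 3 libraries for 35 of the 40, against 23.8% of all tested genes, at a median log2 change of -0.27.

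Many mitotic genes rose between the days, and the median of the list ended above both control libraries in replicate 1 only. The G2/M list holds cyclin B, its kinase CDK1, spindle motors and checkpoint proteins, most of which are transcribed late in the cell cycle. Of 39 tested genes, 20 rose and none fell with the block (4.44% and 3.21% of all tested genes). EdgeR without the block called none, with 19 higher at an unadjusted p under 0.05, and DESeq2 called 7 higher. In 28 of the 39 both day 5 libraries lay above both day 3 libraries, against 25.5% of all tested genes. The median log2 change was 0.54, at 0.69 in replicate 1 and 0.39 in replicate 2. Against control the median was -0.38 at day 3 and 0.25 at day 5. By library it was 0.49 and 0.03 in day 5 replicates 1 and 2, and 0.13 and -0.13 in the control libraries. Removing the GC and length trends left 20 rises, and the blocked count was 6 without day 3 replicate 1, 11 without day 3 replicate 2, and 18 without day 5 replicate 2.

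TOP2A, the topoisomerase that untangles chromosomes, stood at 292 and 211 CPM in the control libraries, 188 and 146 CPM at day 3 and 374 and 254 CPM at day 5. CDK1, the mitotic kinase, went from 53.7 and 40.6 CPM to 110.2 and 68.0 CPM, within its control range of 84.7 and 65.4 CPM for replicate 2 and above it for replicate 1. NEK2, a centrosome kinase, was level with control at day 3, at 18.3 and 12.5 CPM against 16.6 and 14.3 CPM, and at 38.5 and 33.5 CPM at day 5. Replicate 1 lay above replicate 2 in most of these genes, as CENPF, a kinetochore protein, shows at 44.7 and 28.0 CPM and then 97.3 and 56.9 CPM. The blocked log2 changes were 0.90 ± 0.11, 0.89 ± 0.13, 1.24 ± 0.17 and 1.07 ± 0.14 SE. MKI67, the proliferation antigen Ki-67, rose as well, from 181 and 136 CPM to 334 and 200.2 CPM, and CDC20, an activator of the anaphase-promoting complex, moved farther above its control of 59.0 and 63.2 CPM, from 133 and 105 CPM to 208 and 136 CPM.

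Promoters of late cell cycle genes are known to carry CCAAT boxes, bound by NF-Y, and the cell cycle homology region, a TTTGAA stretch read by the DREAM and MuvB complexes. In the 250 bases before the start, searched on both strands, CCAAT was found in 25 of 33 matched G2/M promoters against 35.2% of all tested genes, and TTTGAA in 16 of 33 against 8.57%. Among the 18 matched promoters of genes that rose with the block, 15 (83.3%) held CCAAT and 13 (72.2%) TTTGAA. The promoters of DLGAP5, a spindle protein, HMMR, a spindle and hyaluronan-binding protein, ASPM, a spindle pole protein, and KIF11, the kinesin that pushes spindle poles apart, are shown because they hold both motifs close to the start. Both motifs are in capitals on either strand, so ATTGG and TTCAAA are the same motifs read backwards. In HMMR, neighbouring matches overlap. The 150 bases before the start lie at chr14:55191586-55191735 (minus strand), chr5:163460482-163460631 (plus strand), chr1:197146670-197146819 (minus strand) and chr10:92592980-92593129 (plus strand) of GRCh38.p14, from RefSeq.

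DLGAP5: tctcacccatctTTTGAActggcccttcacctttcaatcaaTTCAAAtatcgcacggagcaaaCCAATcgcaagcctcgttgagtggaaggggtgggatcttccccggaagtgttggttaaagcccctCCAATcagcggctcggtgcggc
HMMR: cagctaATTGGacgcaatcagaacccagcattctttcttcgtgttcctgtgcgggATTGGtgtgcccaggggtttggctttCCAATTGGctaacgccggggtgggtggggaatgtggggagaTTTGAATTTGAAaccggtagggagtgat
ASPM: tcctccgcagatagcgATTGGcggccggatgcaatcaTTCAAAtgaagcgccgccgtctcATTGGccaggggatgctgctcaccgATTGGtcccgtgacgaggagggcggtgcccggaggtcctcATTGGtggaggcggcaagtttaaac
KIF11: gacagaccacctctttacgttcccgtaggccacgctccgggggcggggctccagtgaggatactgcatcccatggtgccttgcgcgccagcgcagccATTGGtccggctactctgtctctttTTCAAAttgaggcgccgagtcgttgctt

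Of these 4 genes, DLGAP5 rose from 11.9 and 9.62 CPM to 29.3 and 21.0 CPM and HMMR from 22.1 and 13.1 CPM to 39.8 and 34.9 CPM. ASPM rose from 17.0 and 13.6 CPM to 35.5 and 29.2 CPM and KIF11 from 47.3 and 36.8 CPM to 86.8 and 55.1 CPM. Both day 5 libraries exceeded both day 3 libraries in each of the 4.

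Some genes of the G1/S step and of DNA replication fell. Of 37 tested genes, 9 fell and none rose with the block (3.21% and 4.44% of all tested genes). In 11 of the 37 both day 5 libraries lay below both day 3 libraries, near the 23.8% of all tested genes. EdgeR called none without the block, with 4 lower at an unadjusted p under 0.05, and DESeq2 called 2 lower. The median log2 change was -0.28, and it differed between replicates, at -0.10 in replicate 1 and -0.58 in replicate 2. The blocked count was smaller without either day 3 library or day 5 replicate 2, and larger without day 5 replicate 1 or either control library. Lower calls over all tested genes moved the same way, so these counts do not place the falls in either replicate. UNG, which removes uracil from DNA, was the gene nearest to the threshold without the block, at 83.9 and 85.3 CPM in control, 108 and 101 CPM at day 3 and 45.9 and 34.8 CPM at day 5 (log2 -1.37 ± 0.16 SE, edgeR adjusted p = 0.0586). Both day 5 libraries lay under all 4 others. CCNE1, the cyclin E that drives entry into S phase, was level with control at day 3 and then fell, from 8.97 and 10.2 CPM to 5.04 and 3.33 CPM. MCM7, a subunit of the replicative helicase, fell from 440.1 and 384 CPM to 327 and 237 CPM, and GINS2, which joins the helicase to the replication fork, from 25.8 and 23.7 CPM to 17.1 and 6.72 CPM. CDK4, the kinase of the D-type cyclins, fell from 214 and 231 CPM to 171 and 155 CPM, back to its control range of 147 and 162 CPM. Among 21 histone genes tested, 4 rose and none fell with the block, against 4.44% and 3.21% of all tested genes. H1FX, a linker histone variant, rose from 41.3 and 41.6 CPM to 62.5 and 91.9 CPM, above its control of 31.1 and 26.8 CPM. The blocked count was 1 without day 3 replicate 2, 2 without day 5 replicate 2, 7 and 6 without control replicates 1 and 2, and 2 with GC and length trends removed.

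Targets of p53 rose in part. In 8 of 27 tested genes both day 5 libraries lay above both day 3 libraries, near the 25.5% of all tested genes, and in 4 below them (23.8%). With the block 9 rose and none fell, against 4.44% and 3.21% of all tested genes, and the median log2 change was 0.42. Without it edgeR called none, with 6 higher and 1 lower at an unadjusted p under 0.05, and DESeq2 called 1 higher. The blocked count was 3 without day 3 replicate 1, 2 without day 3 replicate 2 and 5 without day 5 replicate 2. RRM2B, the ribonucleotide reductase subunit induced by p53, was level with control at day 3, at 51.1 and 70.0 CPM against 51.5 and 65.9 CPM, and at 94.9 and 139 CPM at day 5 (log2 0.94 ± 0.12 SE, blocked edgeR adjusted p = 0.00023). ZMAT3, an RNA-binding protein under p53, behaved alike, from 29.3 and 44.5 CPM to 53.5 and 87.3 CPM. CDKN1A, the cell cycle inhibitor p21, stood at 461 and 891 CPM in the control libraries, 583 and 1127 CPM at day 3 and 764 and 1808 CPM at day 5. Replicate 2 exceeded replicate 1 in every group, so its days overlap and the rise, log2 0.54 ± 0.12 SE, is seen within replicates. MDM2, the ligase that degrades p53, shows the same pattern, from 93.4 and 138 CPM to 129.9 and 201 CPM. FAS, a death receptor, rose from 15.5 and 18.1 CPM to 24.4 and 28.4 CPM, with the control at 21.8 and 19.1 CPM, and missed the threshold with GC and length trends removed (blocked edgeR adjusted p = 0.109) and with blocked DESeq2 (adjusted p = 0.0848). MDM2 missed it with GC and length trends removed too (blocked edgeR adjusted p = 0.327).

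Some immediate early genes, which respond within minutes to signalling and stress, rose. Of 29 tested genes, 9 rose and none fell with the block, against 4.44% and 3.21% of all tested genes, and in 15 both day 5 libraries lay above both day 3 libraries (25.5% of all tested genes). No call was made by edgeR without the block, where 11 were higher at an unadjusted p under 0.05, and DESeq2 called 2 higher. The list had a median log2 change of 0.68, which was 0.36 in replicate 1 and 0.72 in replicate 2. The blocked count was 1 without day 3 replicate 1, 4 without day 3 replicate 2 and 4 without day 5 replicate 2. JUN, a subunit of the AP-1 factor, was at 24.2 and 20.4 CPM in the control libraries, 20.9 and 20.8 CPM at day 3 and 49.1 and 38.0 CPM at day 5. DUSP1, a phosphatase that shuts off MAP kinases, was at 16.1 and 19.0 CPM in control, 5.99 and 13.8 CPM at day 3 and 19.4 and 30.7 CPM at day 5. EGR1, a zinc finger factor, was far above its control of 3.34 and 5.08 CPM on both days, at 12.3 and 16.7 CPM and then 16.5 and 36.8 CPM. Of 28 NF-kB and cytokine genes, 5 rose and none fell with the block, against 4.44% and 3.21% of all tested genes, at a median of 0.07. The median was -0.07 in replicate 1 and 0.15 in replicate 2. Both day 5 libraries lay above both day 3 libraries for 8 of the 28 and below them for 7, near the 25.5% and 23.8% of all tested genes. In the blocked fit 1 rose without either day 3 library or day 5 replicate 2, against 7 without day 5 replicate 1 and 8 and 7 without control replicates 1 and 2. CXCL8, the neutrophil chemokine interleukin-8, was below control at day 3 and above it at day 5, at 5.08 and 4.75 CPM, 0.886 and 1.59 CPM and 7.07 and 11.7 CPM in turn (log2 2.92 ± 0.37 SE, blocked edgeR adjusted p = 0.000225). NFKBIZ, an atypical inhibitor that helps to switch on secondary cytokine genes, took the same course, from 3.08 and 4.62 CPM to 7.53 and 14.0 CPM around a control of 6.42 and 7.33 CPM.

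**Figure D5:**
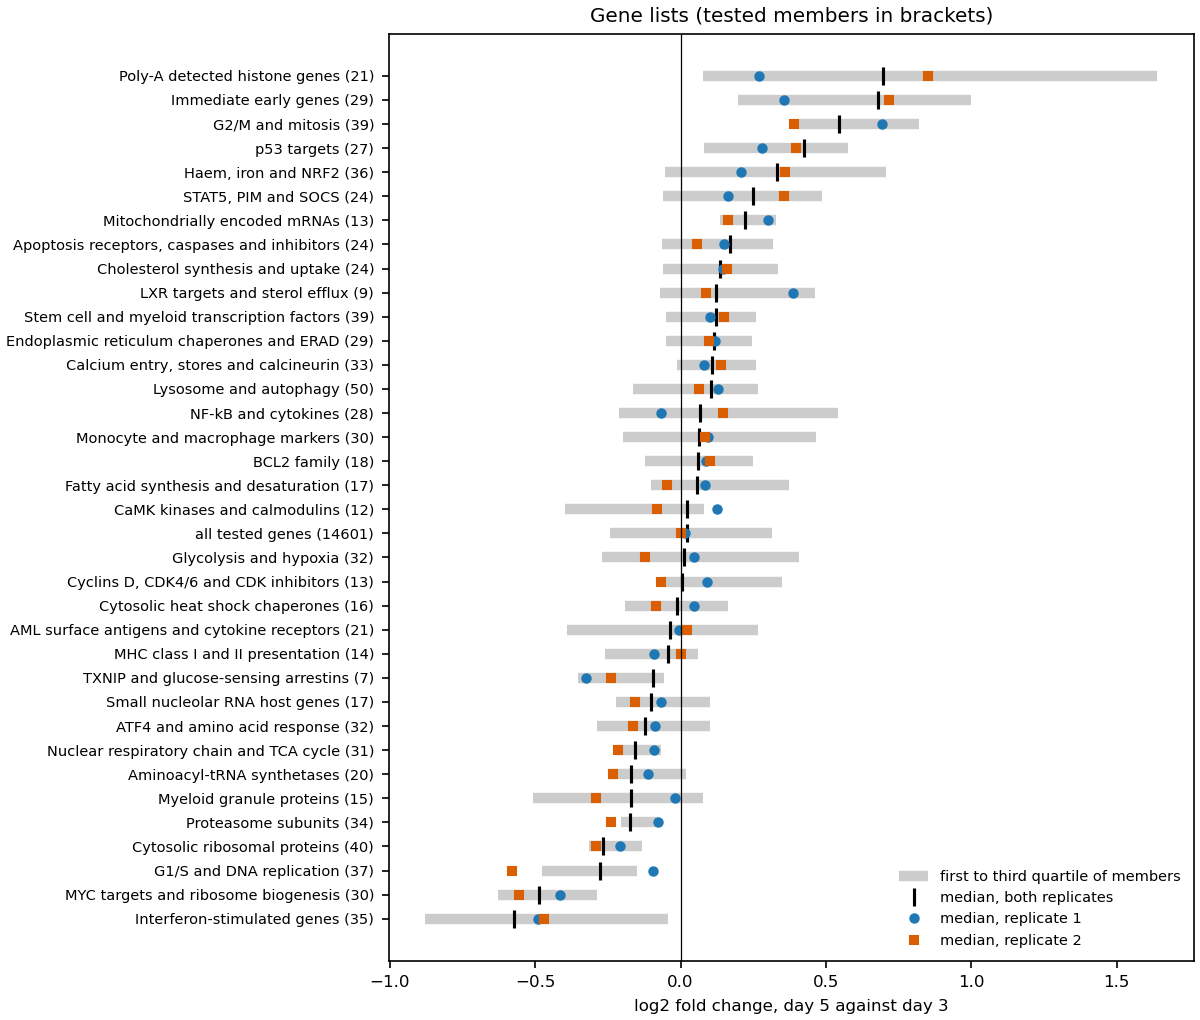
Log2 fold change of day 5 over day 3 (x axis) for the tested members of the 35 gene lists and for all tested genes (y axis, number tested in brackets); grey bars span the quartiles of the members, black ticks their fitted median, and points each replicate's median difference of log2(CPM + 0.5). The G2/M list lies at 0.54 and the MYC and ribosome biogenesis list at -0.49, while the replicate medians part in the G1/S list, at -0.10 and -0.58.

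Some myeloid identity genes were lower at day 5 than at day 3, and ITGAX had moved part of the way back to control. Of 30 monocyte and macrophage markers, 1 rose and 5 fell with the block, at a median of 0.07, and of 15 myeloid granule proteins, 3 fell and none rose, against 4.44% of all tested genes higher and 3.21% lower. Both day 5 libraries lay above both day 3 libraries for 5 of the 30 markers and below them for 3. For the 15 granule genes these counts were 2 and 4, beside 25.5% and 23.8% of all tested genes. Without the block edgeR called none of either list, with 2 higher and 1 lower in each at an unadjusted p under 0.05, and DESeq2 called 1 monocyte and macrophage marker higher and 1 lower. Of the monocyte and macrophage markers 3 fell without day 3 replicate 1 and 2 without day 3 replicate 2, and of the granule proteins 2 fell without either day 3 library and 6 without day 5 replicate 2 or either control library. MPO, the peroxidase of the azurophil granule, stood at 662 and 1219.9 CPM in the control libraries, 16.5 and 27.7 CPM at day 3 and 6.85 and 15.6 CPM at day 5. The 3 groups did not overlap, and the difference between control and day 3 was the larger step. LILRB4, an inhibitory receptor of monocytic cells, went from 103 and 132 CPM through 57.2 and 84.4 CPM to 31.0 and 54.0 CPM, and CCR2, the receptor for the monocyte chemokine CCL2, from 75.3 and 264 CPM through 8.29 and 43.0 CPM to 3.57 and 21.8 CPM. CCR2 shows a several-fold gap between replicates in every group, so its fall is seen only within replicates. In the other direction, ITGAX, the integrin CD11c, stood at 18.2 and 19.1 CPM in control and 3.54 and 5.11 CPM at day 3, and rose to 7.64 and 12.7 CPM at day 5. F3, tissue factor, is not part of the rise counted above and is named for its values. It took the same course, at 257 and 192 CPM, 67.5 and 54.5 CPM and 161 and 139 CPM. AIF1, an actin-binding protein of macrophages, was level with control at day 3, at 253 and 230.3 CPM against 251 and 232 CPM, and fell to 171 and 164 CPM.

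Among surface antigens and cytokine receptors of this leukaemia, 1 of 21 rose and 2 fell with the block, the rise at about the 4.44% of all tested genes (3.21% fell). In the same fit no gene rose without day 3 replicate 2, none fell without day 3 replicate 1, 4 fell without day 5 replicate 2, and 4 rose and 5 fell without either control library. IL3RA, the interleukin-3 receptor alpha chain CD123, stood at 54.6 and 51.8 CPM in the control libraries, 32.9 and 32.7 CPM at day 3 and 19.2 and 22.6 CPM at day 5. Each day lay under the one before. CD82, a tetraspanin, instead rose from 8.97 and 10.0 CPM to 18.4 and 19.1 CPM, still under the control level of 42.5 and 61.5 CPM. FLT3, the receptor kinase, was at 341 and 328 CPM and then 241 and 269 CPM and did not pass (blocked edgeR adjusted p = 0.0644). Of 39 stem cell and myeloid transcription factors, 1 rose and 1 fell, no larger a share than the 4.44% and 3.21% of all tested genes, and none passed without day 5 replicate 2. The pair is named for its values and not as a result of the list. CEBPA, which directs granulocyte and monocyte differentiation, was level with control at day 3 and rose from 318 and 315 CPM to 448 and 469 CPM. MYB, a factor of immature blood cells, fell, at 459 and 411 CPM, 289 and 327 CPM and 232 and 185 CPM in turn. HOXA9, a homeobox factor of myeloid leukaemia, did not pass, at 68.0 and 48.2 CPM and then 75.5 and 45.7 CPM.

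Interferon-stimulated genes differed more between replicates than between days. The median of 35 tested genes over control was 0.83 and 2.42 on the log2 scale for replicates 1 and 2 at day 3, and 0.44 and 1.98 at day 5. It was lower at day 5 in both replicates. Both day 5 libraries lay below both day 3 libraries for 1 of the 35 genes (23.8% of all tested genes) and above them for 1 (25.5%). With the block 2 genes fell and none rose, against 3.21% and 4.44% of all tested genes. Without it edgeR and DESeq2 called none, with 1 lower at an unadjusted edgeR p under 0.05. Without single libraries the blocked count was 6 and 3 (day 3 replicates 1 and 2), 5 and 10 (day 5) and 17 and 19 (control). OASL, an oligoadenylate synthetase-like protein, was at 0.0642 and 0.719 CPM in control, 13.9 and 67.2 CPM at day 3 and 4.75 and 20.6 CPM at day 5. IFIT1, which binds foreign RNA caps, was at 0.193 and 0.575 CPM, 12.1 and 76.8 CPM and 6.51 and 27.7 CPM. In both genes replicate 2 at day 5 exceeded replicate 1 at day 3, so the days overlap and only the pairing brings out the fall.

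Genes of endoplasmic reticulum stress and amino acid shortage moved both ways. Of 32 genes of the ATF4 and amino acid response, 3 rose and 4 fell with the block (4.44% and 3.21% of all tested genes), with 1 or 2 falls when any knockout-labelled library was left out and 9 and 12 without control replicates 1 and 2. GDF15, a secreted stress cytokine, climbed from 3.79 and 4.22 CPM in control through 73.5 and 90.8 CPM to 161 and 303 CPM, and PPP1R15A, which dephosphorylates the initiation factor eIF2 alpha, from 45.8 and 45.8 CPM through 151 and 132 CPM to 181 and 235 CPM. CHAC1, which degrades glutathione, was within or above its control range at day 3 and fell from 61.5 and 86.1 CPM to 19.8 and 36.9 CPM. DDIT3, the factor CHOP, fell towards its control of 8.93 and 10.7 CPM, from 28.7 and 32.1 CPM to 18.8 and 22.3 CPM. PCK2, a mitochondrial carboxykinase, did likewise, from 216 and 257 CPM to 144 and 184 CPM. Of 29 genes of endoplasmic reticulum chaperones and protein degradation, 2 rose and 1 fell with the block, against 4.44% and 3.21% of all tested genes. Without the block edgeR and DESeq2 called none of the 29. The rises were those of the chaperones HSP90B1 and DNAJB9, to 814 and 722 CPM and 38.8 and 46.8 CPM, farther above control. Of 16 tested cytosolic heat shock chaperone genes, 2 fell and none rose with the block, against 3.21% and 4.44% of all tested genes. Their median log2 change was -0.01, and 8 of the 16 had a change above 0. The falls were those of HSPA8 and HSP90AB1, constitutive chaperones. HSPA8 went from 1645 and 1884 CPM to 1263 and 974 CPM, and HSP90AB1 from 2922 and 3097 CPM to 2167 and 1990.0 CPM.

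Of 24 cholesterol synthesis and uptake genes, 3 rose and none fell with the block (4.44% and 3.21% of all tested genes), 0 without day 3 replicate 2 and 1 without day 5 replicate 2, and the median over control went from -1.23 at day 3 to -0.99 at day 5. STARD4, a sterol carrier, rose into or near its control range of 36.2 and 40.8 CPM, from 17.0 and 17.5 CPM to 31.0 and 40.1 CPM. HMGCS1, an early enzyme of the pathway, rose from 31.8 and 30.4 CPM to 44.4 and 55.0 CPM but stayed under 77.1 and 91.6 CPM. SREBF1, the factor behind lipid synthesis genes, fell, at 265 and 231 CPM in control, 144 and 173 CPM at day 3 and 103 and 127 CPM at day 5. Its blocked edgeR adjusted p was 0.038, and 0.0741 with GC and length trends removed, 0.0919 and 0.433 without day 3 replicates 1 and 2, and 0.186 without day 5 replicate 1. EdgeR on all 6 libraries called none of the 13 mitochondrially encoded mRNAs with or without the block, where 4 and 2 were higher at an unadjusted p under 0.05. Some blocked edgeR fits with 1 library left out did call members, and DESeq2 called 1 higher with the block. Their median over control was -1.36 at day 3 and -1.12 at day 5. MT-CO1, a subunit of cytochrome oxidase, stood at 8754 and 7148 CPM in the control libraries, 1603 and 1788 CPM at day 3 and 2035 and 1918 CPM at day 5. TXNIP, which restrains glucose uptake and thioredoxin, fell, with the groups in separate ranges, at 281 and 275 CPM, 192 and 178 CPM and 91.9 and 104 CPM (log2 -0.92 ± 0.12 SE, blocked edgeR adjusted p = 0.000225). HIF1A, the oxygen-sensing factor, rose from 28.5 and 33.4 CPM to 64.7 and 49.8 CPM.

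No member of the BCL2 family (18 tested), the aminoacyl-tRNA synthetases (20), the proteasome subunits (34) or the antigen presentation genes (14) passed in edgeR with TMM factors or DESeq2 on all 6 libraries, with or without the block. In blocked edgeR, 1 aminoacyl-tRNA synthetase was lower with upper-quartile factors. With GC and length trends removed, 1 BCL2 family gene was higher. Members of each list also passed in some blocked edgeR fits with 1 library left out. At an unadjusted edgeR p under 0.05 with the block 4, 6, 6 and 4 genes of the lists in turn lay, and without it 0, 3, 2 and 0. The median log2 changes of the lists were 0.06, -0.17, -0.17 and -0.04, which does not show that they were unaffected.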

How the data were processed

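RNA was sequenced in 6 libraries, and the deposited table gives whole-number counts per gene and FPKM values, made by the authors per the file headers. The submitters' processing notes name HISAT2, HTSeq 0.11.2, DESeq2 1.26.0 and GRCh38 without roles. The use of strand is not given in the sources used here, so overlapping and antisense genes cannot be told apart. The deposited counts were tested here with edgeR 4.0.16 (R 4.3.3; TMM, a low-count filter with a minimum of 10, quasi-likelihood, robust), in one model of 3 groups with 3 residual degrees of freedom, adjusted by Benjamini-Hochberg over 14601 genes at 0.05. DESeq2 1.42.0 on the counts and limma 3.58.1 on log2(FPKM + 1) of the deposited FPKM were alternatives. Scripts were tested on simulated data.

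The fit with the replicate number as a block was also run. The deviations of same-numbered libraries from their group means correlated at 0.514 (control and day 3), 0.441 (control and day 5) and 0.628 (day 3 and day 5) over 10190 genes, above 0.1 in every pair of groups. The labels give shared numbers and no shared culture. Libraries of a group differed beyond counting noise (chi-square over its degrees of freedom from 17.4 to 37.7).

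Named genes were the CAMK2 genes, the largest called protein-coding changes with a mean level of 5 CPM or more, up to 4 passing members of each list, and haem, iron and NRF2 members. As only 4 genes passed, genes passing with the block were named too, a rule added after their values were seen. Members and the 35 gene lists were chosen with earlier results of these data known, and some genes are not reported here. Gene positions are from GENCODE 29 on GRCh38, and promoters from RefSeq. A floor of 3 counts corresponds to 0.154 to 0.172 CPM in the knockout-labelled libraries.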

Additional observations from a re-analysis of the deposited data

How the results depend on the processing

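Of the 4 genes called, 4 were also called with RLE or upper-quartile factors, at least 5 CPM in 2 libraries, or only the 4 knockout-labelled libraries. Without a filter 599 genes passed (266 higher, 333 lower; 92 farther from control, 304 nearer) and with DESeq2 385 (202 higher, 183 lower). With the replicate block 1117 passed (648 higher, 469 lower; 203 farther, 517 nearer), and 2695 with the block in the 4 knockout-labelled libraries only (1416 higher, 1279 lower). The cause of these differences was not tested. With limma on log2(FPKM + 1) 1 gene passed, higher, and 0 with a pseudocount of 0.1 or no filter, where 2060 and 2411 had an unadjusted limma p under 0.05. Leaving out 1 library gave 1 to 15 calls (1 to 9 higher, 0 to 7 lower; 1 to 6 farther, 0 to 9 nearer).

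With the block, leaving out 1 library gave 225 and 167 calls (day 3 replicates 1 and 2), 1350 and 374 (day 5) and 2572 and 2690 (control). RLE and upper-quartile factors gave 1096 and 1046, DESeq2 761, 5 CPM 1277 and no filter 1464. The share of higher genes was 58.0% with the block, 43.7% without a filter and 39.5% with GC and length trends removed. HMOX1, FTH1, GCLM and TNFRSF10D passed in each of these blocked fits.

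Of the genes named, those whose sign turned had not passed without the block. CAMK2G turned to -0.00517 with RLE factors, -0.013 with upper-quartile factors, -0.00525 with DESeq2 and -0.040 without a filter, and ranged from -0.18 to 0.13 with 1 library left out. With 1 library left out CAMK2B ranged from -1.48 to 2.59 and HOXA9 from -0.36 to 0.37. On the same leave-out, CCR2 ranged from -2.85 to 0.57, IFIT1 from -2.77 to 0.45 and CDKN1A from -0.17 to 1.09. Having 2 libraries a group limits every call, and depth limits genes at a few CPM.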

Other observations

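Among genes outside the haem, iron and NRF2 list, the largest changes that passed with the replicate block included signalling molecules. KITLG, the ligand of the receptor KIT, stood at 13.7 and 12.3 CPM in the control libraries, 5.26 and 7.15 CPM at day 3 and 19.8 and 15.1 CPM at day 5. ID2, an inhibitor of helix-loop-helix factors, rose from 18.4 and 13.4 CPM to 53.2 and 32.9 CPM, and LEPR, the leptin receptor, from 3.34 and 2.53 CPM to 7.30 and 9.34 CPM. CHRNA7, a nicotinic acetylcholine receptor subunit, rose from 2.87 and 2.64 CPM to 8.04 and 7.43 CPM, farther above its control of 1.48 and 1.68 CPM. BASP1, a membrane-bound growth protein, was level with control at day 3 and rose from 36.0 and 25.6 CPM to 82.8 and 78.0 CPM. Among the falls, PARS2, the mitochondrial prolyl-tRNA synthetase, went from 10.4 and 10.5 CPM to 3.51 and 4.15 CPM, and CD3EAP, an RNA polymerase I subunit, from 10.6 and 14.0 CPM to 4.98 and 3.22 CPM. TERT, the telomerase catalytic subunit, fell from 6.62 and 7.92 CPM to 2.21 and 3.93 CPM, while its control libraries stood apart from each other at 3.40 and 10.6 CPM. These genes were chosen by size of change after the values were seen.

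Autophagy and calcium genes gave few changes. Of 50 lysosome and autophagy genes, 4 rose and none fell with the block (4.44% and 3.21% of all tested genes). Without the block neither edgeR nor DESeq2 called any. The blocked calls of this list were lost without either day 3 library or without day 5 replicate 2. ULK1, the kinase that starts autophagy, rose from 79.9 and 90.7 CPM to 104 and 129 CPM, within or near its control of 116 and 129 CPM, and OPTN, an autophagy receptor, from 13.4 and 19.5 CPM to 22.1 and 32.9 CPM. Of 33 calcium entry, store and calcineurin genes, 3 rose and none fell with the block, again beside 4.44% and 3.21%. With GC and length trends removed 1 rose, and without the block edgeR and DESeq2 called none. Fewer rose with the block when any knockout-labelled library was left out. STIM1, the calcium sensor of the endoplasmic reticulum, moved farther above its control of 56.2 and 45.5 CPM, from 103 and 79.6 CPM to 137 and 115 CPM. Of 24 genes of STAT5, PIM and SOCS signalling, 3 rose and none fell with the block, against 4.44% and 3.21% of all tested genes. Without the block edgeR called none of them and DESeq2 called 1 higher. The rises with the block included PIM3, a serine kinase, from 79.5 and 81.0 CPM to 101 and 114 CPM. CAMKK2, a kinase that activates other calmodulin kinases, fell from 218 and 229 CPM to 180.3 and 157 CPM with the block.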
